A study of Mus musculus with 14 samples.

Results

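The transcripts examined here are those of 10 genes that mark myeloid cells: Ptprc, Cd14, Csf1r, Tyrobp, Fcer1g, Lyz2, Cd68, C1qa, C1qb and C1qc. All probes that carry one of these gene names were taken, which gave 12 of the 55681 non-control probes of the array, 3 of them for Csf1r and 1 for each other gene. The samples were mouse satellite cells, the stem cells of skeletal muscle, sorted by flow cytometry for CD34 and integrin alpha 7 and against CD45, CD11b, CD31 and Sca1. CD45 is the protein of Ptprc, so 1 of the 10 genes was itself a gate of the sort, and CD11b (Itgam) is a further myeloid gate. Amplified RNA was labelled with Cy3 and hybridised to 14 single-colour Agilent arrays, 1 sample per array. C57BL/6 mice gave 3 arrays of Young animals aged 2 to 3 months, 3 of Old animals aged 22 to 24 months and 2 of Geriatric animals aged 29 and 30 months. SAMR1 mice, which resist early senescence, and SAMP8 mice, which are prone to it, gave 3 arrays each at 12 months. No group carried a transgene or a treatment per the labels, all animals were labelled male, replicates were called biological, and the sources used here do not say whether a sample pooled animals.

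Myeloid cells (monocytes, macrophages, granulocytes and dendritic cells) take up debris and microbes, and macrophages in muscle lie close to satellite cells and help to clear and rebuild damaged fibres. Ptprc is found on all nucleated blood cells, whereas the other 9 genes cover the steps of a phagocyte's work: recognition at the surface (Cd14, Csf1r), signalling through adaptor chains (Tyrobp, Fcer1g), digestion in lysosomes (Lyz2, Cd68) and tagging of targets by complement component C1q, which is built from the A, B and C chains encoded by C1qa, C1qb and C1qc. Satellite cells are not of blood origin. In these bulk samples fewer cells of a type and less RNA per cell cannot be told apart.

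Between 77.1% and 88.8% of all probes were well above background on an array. Levels below are log2 signals relative to the 75th percentile of the same array, so a negative level is a signal below that percentile, and levels of different probes are not compared. The first principal component of all genes held 46.3% of the variance and separated Young and Old arrays (−189.81 to −52.24) from Geriatric, SAMR1 and SAMP8 arrays (34.61 to 110.69). Sex-linked transcripts followed the same division although every animal was labelled male: Xist lay between 5.08 and 5.86 on the Young and Old arrays, where Ddx3y was not well above background, and Ddx3y was well above background on the other 8 arrays, where Xist lay between −8.15 and −3.52. Geriatric comparisons with Young and Old cross this division and cannot be told apart from it, while Old versus Young and SAMP8 versus SAMR1 do not cross it. The sorted cells carried satellite cell transcripts on every array: all 17 of 17 listed markers, Itga7 (0.14 to 1.46) and Cd34 (2.46 to 3.60) among them, were well above background on all 14 arrays. So were 12 of 12 measured fibro-adipogenic, 19 of 20 complement, 9 of 15 endothelial and 4 of 15 granulocyte genes. Detection on all arrays therefore does not by itself single out satellite cells. In Geriatric versus Old 3 of the 17 rose and none fell, where 20.0% of all genes passed (1814 of 32863 genes as higher). Of the 17, 14 were higher, with a median of 0.41 beside −0.22 for all genes. The 3 were Myf5, a myogenic transcription factor (2.34 ± 0.43, adjusted p = 0.00431, limma), Heyl, a target of Notch signalling (1.29 ± 0.29, 0.0115), and Spry1, an inhibitor of growth factor signalling (1.68 ± 0.36, 0.00943). In Old versus Young none of the 17 passed, beside 1.44% of all genes, 14 had a lower mean and the median was −0.37. Endothelial markers, among them the gene of the CD31 gate, were read from a list of 15, all measured. Their mean level was −3.3 to −1.99 on Young, −2.84 to −1.25 on Old and −3.79 and −1.42 on Geriatric arrays. On SAMR1 arrays it was 0.65 to 1.8, and on SAMP8 arrays 1.46, 1.6 and −1.19. In SAMP8 versus SAMR1 14 of the 15 had a lower mean and none passed. The part of these differences in the marker results was not tested.

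Of the 10 genes, 9 were measured and C1qc was not well above background on any array. In the comparison of Geriatric with Old cells Cd14, Lyz2 and C1qb fell, by 2.72-fold, 3.26-fold and 1.87-fold, where 14.4% of all genes passed as lower. Of 13 alternative settings, Cd14 passed in 13, Lyz2 in 10 and C1qb in 6. In SAMP8 against SAMR1 cells Fcer1g rose 4.51-fold and no other marker passed the test, where 0.225% of all genes passed as higher. That call held in 10 of 14 alternative settings. None of the 9 passed in Old versus Young or in Geriatric versus Young, beside 1.44% and 4.19% of all genes. Ptprc stayed within a range of 0.85 log2 units over the 14 arrays and passed in no comparison. A gene passed where its Benjamini-Hochberg adjusted p from limma, over 32863 genes, was under 0.05.

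**Figure D1:**
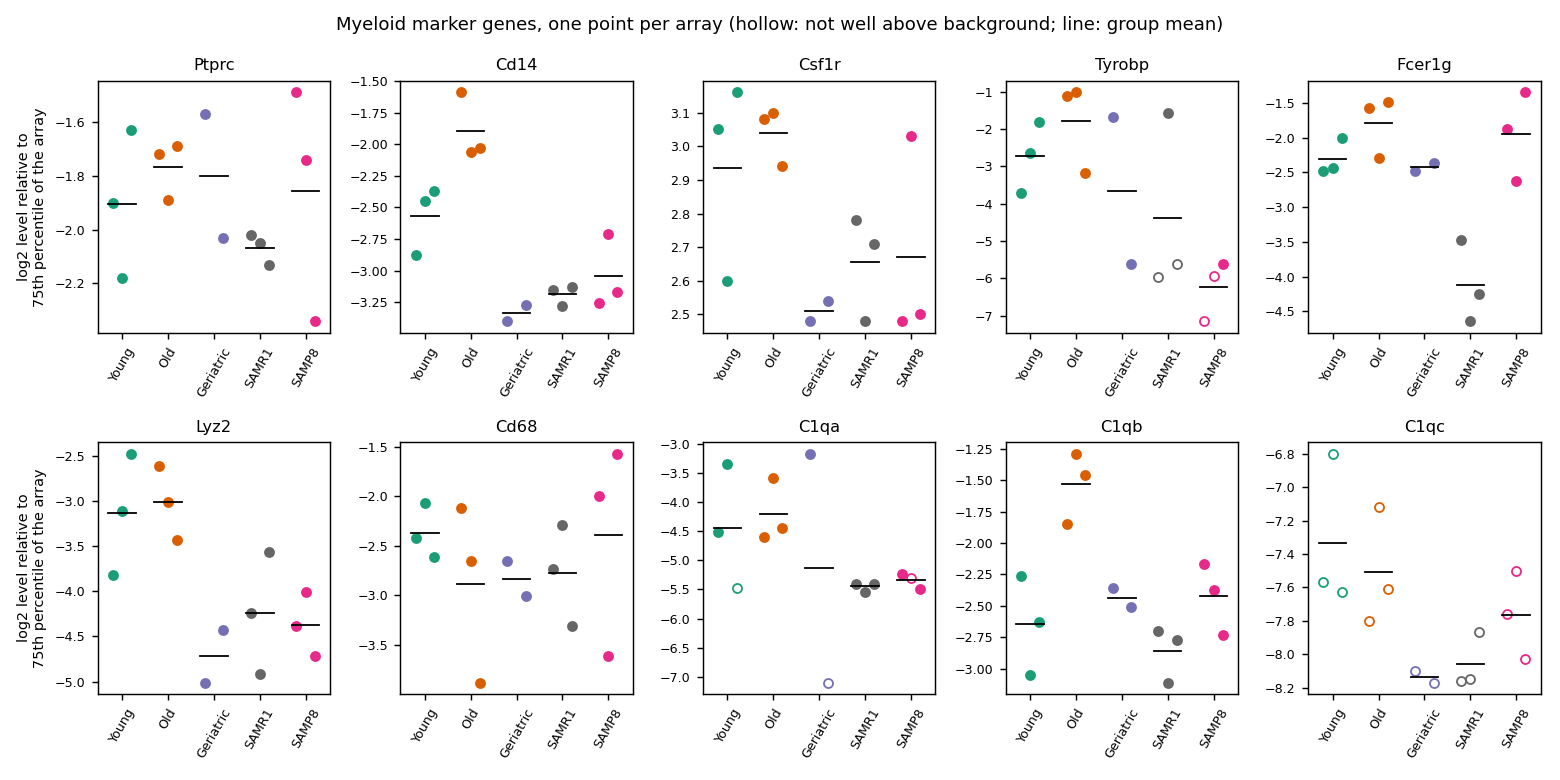
Level of each marker on each array (y axis, log2 relative to the 75th percentile of the array) by group (x axis); points are arrays, hollow points were not well above background, and lines are group means. Cd14 and C1qb are highest on the Old arrays, Fcer1g is lowest on the SAMR1 arrays, Ptprc differs little between groups and every point of C1qc is hollow.

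The array reads each gene through a probe of 60 bases, and the probes of the gate gene, of 1 adaptor, of the lysozyme and of both measured C1q chains are shown because the results below rest on these single stretches. They are given 5′ to 3′ in lower case, as printed in the deposited files, with no base marked, and with their positions in mouse build mm9 per the file headers.
Ptprc probe, chr1:139961083-139961142: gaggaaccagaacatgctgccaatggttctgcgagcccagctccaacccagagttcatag
Tyrobp probe, chr7:31200651-31202378: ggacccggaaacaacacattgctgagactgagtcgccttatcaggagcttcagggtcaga
Lyz2 probe, chr10:116719175-116719234: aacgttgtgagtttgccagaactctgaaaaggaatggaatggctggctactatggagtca
C1qa probe, chr4:136452409-136452468: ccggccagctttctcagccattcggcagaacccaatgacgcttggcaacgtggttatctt
C1qb probe, chr4:136436578-136436637: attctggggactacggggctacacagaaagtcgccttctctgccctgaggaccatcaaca
The Tyrobp probe covers 1728 bases of the genome with 60 bases, so it joins separate exons and reads spliced RNA. GC content was 55.0% for Ptprc, C1qa and C1qb, 53.3% for Tyrobp and 45.0% for Lyz2.

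Ptprc encodes CD45, the receptor-type tyrosine phosphatase that primes signalling in white blood cells and that the sort excluded as a protein. Its probe was well above background on all 14 arrays. Ptprc lay at −1.90, −2.18 and −1.63 on the Young arrays, −1.72, −1.89 and −1.69 on the Old arrays, −1.57 and −2.03 on the Geriatric arrays, −2.02, −2.05 and −2.13 on the SAMR1 arrays and −1.49, −1.74 and −2.34 on the SAMP8 arrays. Every neighbouring pair of groups in the order of the means (SAMR1, Young, SAMP8, Geriatric, Old) overlapped. The Geriatric versus Old difference was −0.03 ± 0.27 (SE) log2 with a 95% interval of −0.62 to 0.55, and the Old versus Young difference was 0.14 ± 0.24 with an interval of −0.39 to 0.66. The SAMP8 versus SAMR1 difference was 0.21 ± 0.24 (interval −0.31 to 0.74). The residual spread of Ptprc within groups (SD 0.27) was below the median of all genes (0.42). Itgam, the other myeloid gate, lay between 7.42 and 8.70 on the 14 arrays, well above background on each. That level is the reading of a single probe, the one with the highest mean where a gene has several. How much of its signal comes from Itgam RNA was not tested.

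Cd14, on chromosome 18, encodes the co-receptor that hands bacterial lipopolysaccharide to the Toll-like receptor 4 complex. Its level was −2.88, −2.45 and −2.37 on the Young arrays, −1.59, −2.06 and −2.03 on the Old arrays and −3.40 and −3.27 on the Geriatric arrays. On the SAMR1 arrays it was −3.15, −3.28 and −3.13, and on the SAMP8 arrays −3.26, −2.71 and −3.17. The 3 Old arrays were the highest of the 14 and did not overlap any other group, and the 2 Geriatric arrays lay at the bottom beside SAMR1. Cd14 fell by 1.44 ± 0.24 (SE) log2 in Geriatric against Old cells (adjusted p = 0.00273, limma; 95% interval −1.97 to −0.91). Old exceeded Young by 0.67 ± 0.22 (adjusted p = 0.147, limma) and Geriatric lay below Young with a difference of −0.77 ± 0.24 (adjusted p = 0.105, limma), so neither passed. SAMP8 and SAMR1 differed by 0.14 ± 0.22 (interval −0.34 to 0.62). Cd14 had a residual SD of 0.23, among the tightest of the 9 with Csf1r (0.22).

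Csf1r, also on chromosome 18, encodes the receptor for CSF1 and interleukin 34, on which macrophages depend for survival. It has 3 probes on the array, and the one with the highest mean, A_55_P2025073, stood for the gene. That probe read 3.05, 2.60 and 3.16 on the Young arrays, 3.08, 3.1 and 2.94 on the Old arrays, 2.48 and 2.54 on the Geriatric arrays, 2.78, 2.48 and 2.71 on the SAMR1 arrays and 2.48, 3.03 and 2.50 on the SAMP8 arrays. Its whole range was 0.68 log2 units, the smallest of the 9 measured genes. The 2 Geriatric arrays lay below all 3 Young and all 3 Old arrays, with a difference from Old of −0.53 ± 0.23 that did not pass (adjusted p = 0.131, limma).

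The other Csf1r probes gave other patterns. A_52_P602091 read −2.14, −2.11 and −1.26 on Young, −0.86, −1.12 and −0.61 on Old, −1.82 and −2.59 on Geriatric, −3.57, −1.61 and −2.38 on SAMR1 and −3.02, −1.33 and −0.50 on SAMP8 arrays. Its Old arrays lay above its Young and Geriatric arrays without overlap. A_55_P2025078 read −2.46, −2.95 and −1.87 on Young, −2.51, −1.90 and −3.70 on Old, −2.98 and −2.80 on Geriatric, −2.17, −4.03 and −2.72 on SAMR1 and −3.86, −3.05 and −2.68 on SAMP8 arrays. The Old versus Young difference was 0.98 ± 0.62 by A_52_P602091, 0.10 ± 0.21 by A_55_P2025073 and −0.28 ± 0.55 by A_55_P2025078, so the probes disagreed in sign. They disagreed again in SAMP8 versus SAMR1 (0.90 ± 0.62, 0.01 ± 0.21 and −0.23 ± 0.55) and shared a negative sign in Geriatric versus Old (−1.34 ± 0.69, −0.53 ± 0.24 and −0.19 ± 0.62). No Csf1r probe passed in a comparison when each probe was tested on its own. How much of the signal of each probe comes from Csf1r RNA was not tested.

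**Figure D2:**
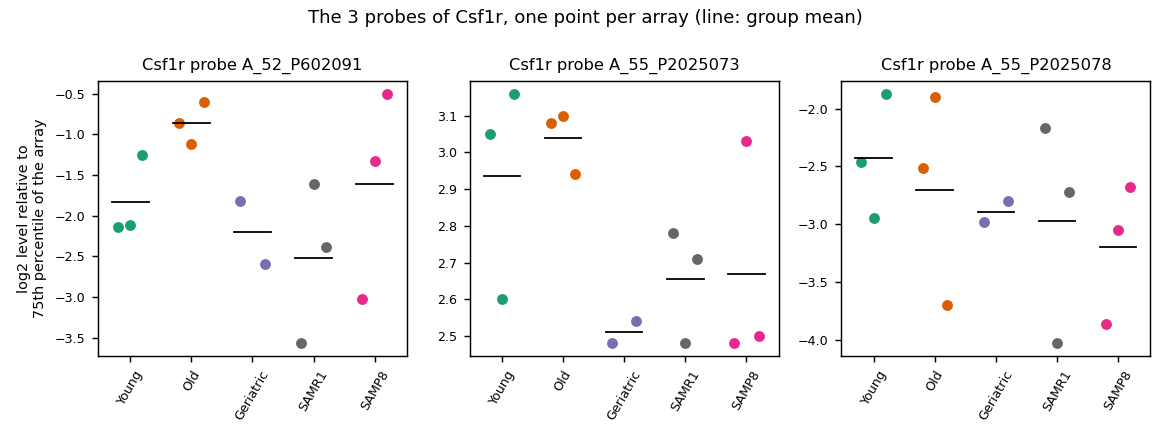
Level of the 3 Csf1r probes on each array (y axis, log2 relative to the 75th percentile of the array, with its own scale in each panel) by group (x axis); points are arrays and lines group means. The left panel separates Old (−1.12 to −0.61) from Young (−2.14 to −1.26), whereas in the middle and right panels the Old and Young arrays overlap.

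Tyrobp encodes DAP12, an adaptor chain with an activation motif through which TREM2 and other myeloid receptors signal. Its level was −3.71, −2.65 and −1.82 on Young, −1.12, −1.02 and −3.18 on Old and −1.68 and −5.62 on Geriatric arrays. On the SAMR1 arrays it was −5.96, −1.56 and −5.62 and on the SAMP8 arrays −7.15, −5.94 and −5.63. It was well above background on all 8 Young, Old and Geriatric arrays but on 1 of 3 arrays in SAMR1 and in SAMP8. Replicates differed most within SAMR1 and Geriatric, and Tyrobp had the widest range of the 9 genes (6.13) and the largest residual SD (1.69). The differences of 0.95 ± 1.24 for Old versus Young, −1.87 ± 1.38 for Geriatric versus Old and −1.86 ± 1.24 for SAMP8 versus SAMR1 did not pass (adjusted p 0.349 to 0.801, limma), and the last compares mostly arrays on which Tyrobp was not well above background. Between Geriatric 1 and Geriatric 3 it differed so much that the Geriatric versus Old difference was 0.10 ± 1.53 without Geriatric 3.

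Fcer1g encodes the common gamma chain shared by Fc receptors, the other adaptor of the set. Its level was −3.48, −4.64 and −4.25 on the SAMR1 arrays and −1.88, −2.63 and −1.35 on the SAMP8 arrays. The highest SAMR1 array lay below the lowest SAMP8 array. On the C57BL/6 arrays it was −2.48, −2.43 and −2.01 in Young, −1.58, −2.29 and −1.49 in Old and −2.48 and −2.36 in Geriatric cells, so SAMR1 was the group that stood below the other 4. Fcer1g rose by 2.17 ± 0.37 (SE) log2 in SAMP8 against SAMR1 (95% interval 1.35 to 2.99; adjusted p = 0.0291, limma). The call held for 1 of the 9 measured markers, beside 0.453% of all genes that passed in either direction and 0.225% that passed as higher. In no age comparison did Fcer1g pass (0.52 ± 0.37 for Old versus Young, −0.12 ± 0.42 for Geriatric versus Young and −0.64 ± 0.42 for Geriatric versus Old). The Geriatric versus Young difference minus the SAMP8 versus SAMR1 difference was −2.29 ± 0.56 (adjusted p = 0.0714, limma), and 1.73% of all genes passed that contrast. None of the 9 markers passed it or the contrast with Old versus Young, which 0.371% of all genes passed.

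Fcer1g kept its direction in every alternative fit run, but not always its call. With slide as a block the SAMP8 versus SAMR1 difference was 2.10 ± 0.39 (adjusted p = 0.0506, limma), and within slides it was 1.24 on slide 1 and 3.03 on slide 2 (adjusted p 0.384 and 0.214). The adjusted p was 0.0501 without Young 1, 0.0514 without Young 2, 0.140 without SAMR1 2, 0.122 without SAMR1 3, 0.0955 without SAMP8 1 and 0.0612 without SAMP8 3 (limma), and 0.256 when the SAMR1 and SAMP8 arrays were fitted alone.

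Lyz2 encodes the lysozyme that macrophages and neutrophils use to break bacterial walls. Its level was −3.82, −3.11 and −2.48 on Young, −2.61, −3.01 and −3.43 on Old and −5.01 and −4.43 on Geriatric arrays. On the SAMR1 arrays it was −4.24, −4.92 and −3.57 and on the SAMP8 arrays −4.39, −4.01 and −4.72. Both Geriatric arrays lay below all 6 Young and Old arrays, and Young and Old overlapped. Lyz2 fell by 1.70 ± 0.46 (SE) log2 in Geriatric against Old cells (95% interval −2.71 to −0.70; adjusted p = 0.0251, limma). Against Young the difference was −1.59 ± 0.46 and did not pass (adjusted p = 0.0804, limma), and Old versus Young was 0.12 ± 0.41. SAMP8 and SAMR1 overlapped (−0.13 ± 0.41). The Lyz2 probe shared no run longer than 6 bases with the probe of the neighbouring copy Lyz1, which did not pass (Geriatric versus Old −1.08, adjusted p = 0.367, limma). Only the 2 probes were compared, and whether the Lyz2 probe also matches Lyz1 RNA was not tested.

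The Lyz2 call depended on single arrays: adjusted p was 0.0788 without Old 1, 0.0612 without Old 2, 0.143 without Geriatric 1 and 0.0748 without Geriatric 3 (limma). The Geriatric versus Old difference was −0.57 (adjusted p = 0.119, limma) from the authors' deposited log2 values and −1.2 (adjusted p = 0.0733, limma) after quantile normalization.

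Cd68 encodes a heavily glycosylated protein of the lysosomal membrane, much used to stain macrophages. Its level was −2.42, −2.07 and −2.61 on Young, −2.12, −2.65 and −3.88 on Old, −2.65 and −3.01 on Geriatric, −2.73, −2.29 and −3.31 on SAMR1 and −2.0, −3.61 and −1.57 on SAMP8 arrays. The highest and the lowest group means, of Young (−2.37 ± 0.27, SD) and Old (−2.88 ± 0.91), differed by less than the spread of the Old arrays. No difference passed: −0.51 ± 0.54 for Old versus Young, 0.05 ± 0.61 for Geriatric versus Old and 0.38 ± 0.54 for SAMP8 versus SAMR1.

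C1qa, C1qb and C1qc lie side by side on chromosome 4 and encode the 3 chains of C1q, the part of the first complement component that binds antibody and dying cells. C1qb was measured on all 14 arrays. Its level was −2.26, −3.05 and −2.63 on Young, −1.85, −1.29 and −1.46 on Old, −2.36 and −2.51 on Geriatric, −2.70, −3.11 and −2.77 on SAMR1 and −2.17, −2.37 and −2.73 on SAMP8 arrays. The 3 Old arrays were the highest of the 14 and overlapped no other group, while each of the other groups overlapped its neighbour in the order of the means (SAMR1, Young, Geriatric, SAMP8). C1qb fell by 0.90 ± 0.28 (SE) log2 in Geriatric against Old cells (95% interval −1.51 to −0.30; adjusted p = 0.0411, limma). Old exceeded Young by 1.11 ± 0.25 with an adjusted p of 0.0545 (limma), which did not pass, but did with slide as a block (1.23 ± 0.20, adjusted p = 0.0211) and with normexp background correction (0.80 ± 0.20, adjusted p = 0.0455). SAMP8 versus SAMR1 was 0.44 ± 0.25 (adjusted p = 0.720, limma).

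The Geriatric versus Old call of C1qb was lost with median scaling (−0.62, adjusted p = 0.156), quantile normalization (−0.66, adjusted p = 0.134), the authors' deposited log2 values (−0.57, adjusted p = 0.0938), an intensity trend in limma's prior (adjusted p = 0.0719) and the 2 groups fitted alone (adjusted p = 0.104). It was also lost without Young 3 (adjusted p = 0.0555), Old 2 (0.121), Old 3 (0.0720), Geriatric 1 (0.109), Geriatric 3 (0.204), SAMR1 1 (0.0557) or SAMR1 3 (0.0564), all by limma.

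C1qa read −4.52, −3.35 and −5.47 on Young, −4.60, −3.59 and −4.44 on Old, −3.17 and −7.10 on Geriatric, −5.40, −5.54 and −5.40 on SAMR1 and −5.23, −5.30 and −5.49 on SAMP8 arrays. It was not well above background on Young 3, Geriatric 3 and SAMP8 2. Geriatric 1 and Geriatric 3 were the highest and the lowest of the 14 arrays, and the residual SD was 1.09. No difference passed with all arrays, and Geriatric versus Old was −0.93 ± 0.89. The sign depended on which Geriatric array was kept (−2.89 without Geriatric 1, 1.04 without Geriatric 3). Without Geriatric 1 the group is a single array on which C1qa was not well above background, so that value is no measured difference, whatever its adjusted p (0.0198, limma, with the spread taken from the other groups). C1qc, read as the mean of 10 replicate spots, lay between −8.17 and −6.80 and was not well above background on any of the 14 arrays, so it was not tested.

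The stretches before the starts of C1qb and C1qc are shown because these genes are neighbours. The C1qb probe was well above background on every array and the C1qc probe on none. Whether this lies in the RNA or in how the probes perform was not tested. They are 250 bases from RefSeq's annotation of GRCm38.p6, minus strand, 5′ to 3′, with GAGGAA or its reverse complement TTCCTC in capitals. GAGGAA is the core of the sites of PU.1 (Spi1), a transcription factor that myeloid cells need.
C1qb, chr4:136886201-136886450: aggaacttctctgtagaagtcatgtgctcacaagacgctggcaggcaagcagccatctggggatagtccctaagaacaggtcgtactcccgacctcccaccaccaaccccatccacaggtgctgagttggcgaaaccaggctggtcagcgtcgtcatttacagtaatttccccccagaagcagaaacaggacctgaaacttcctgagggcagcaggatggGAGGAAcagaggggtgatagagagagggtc
C1qc, chr4:136892915-136893164: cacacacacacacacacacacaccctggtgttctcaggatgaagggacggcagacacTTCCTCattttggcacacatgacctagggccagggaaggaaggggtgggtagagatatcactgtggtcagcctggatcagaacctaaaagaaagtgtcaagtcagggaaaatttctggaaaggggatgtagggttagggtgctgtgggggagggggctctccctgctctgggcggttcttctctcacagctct
The motif starts 30 bases before the start of C1qb on the gene's strand and, as TTCCTC, 193 bases before that of C1qc. Searched on both strands in windows of 300 bases (250 before to 50 after a start), it was found in 4 of the 7 windows of the 6 genes with an entry in the RefSeq table (Lyz2, Fcer1g, C1qb, C1qc, Cd68 and Ptprc, the last with 2 windows), beside 28.3% of all 32851 windows of that length. The 4 windows were those of C1qb, C1qc and Cd68 and 1 of Ptprc. A match of letters is a description and shows no binding.

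**Figure D3:**
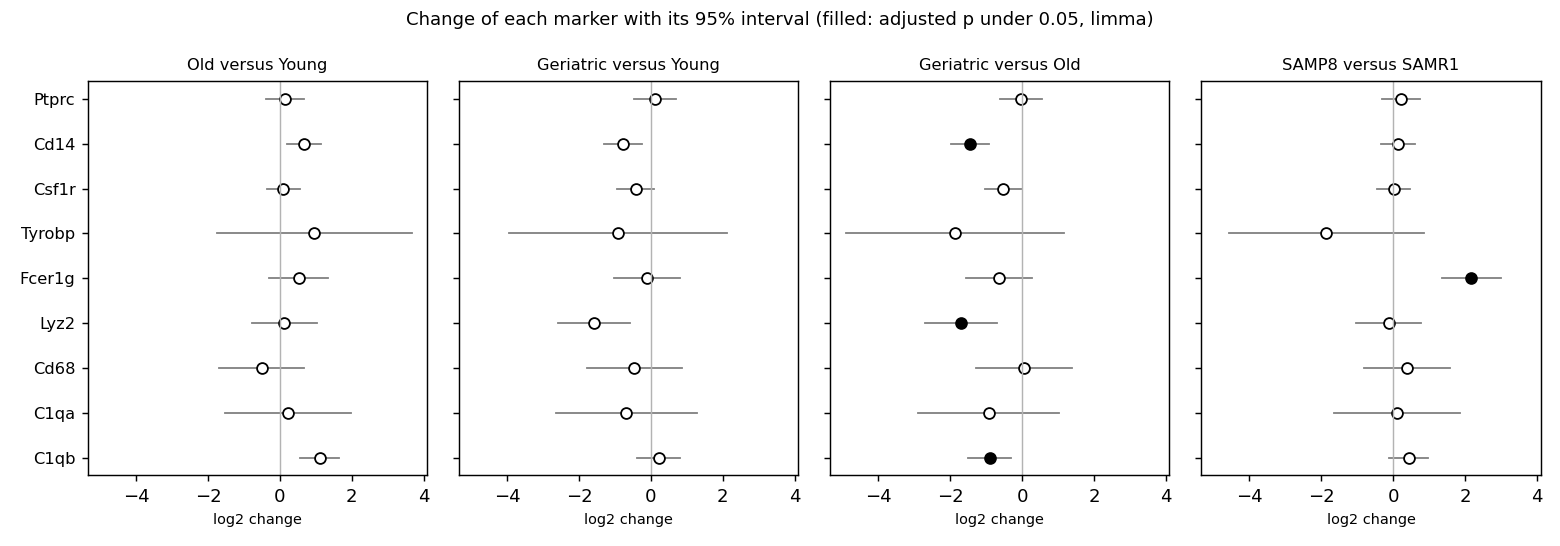
Log2 difference of each of the 9 measured markers (x axis) in 4 comparisons, with limma's 95% interval as a line; filled points passed at an adjusted p under 0.05. Cd14, Lyz2 and C1qb are filled in Geriatric versus Old and Fcer1g in SAMP8 versus SAMR1, and the intervals of Tyrobp and C1qa are the widest.

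Counted over the 9 measured genes, Old versus Young had no call, beside 1.44% of all genes, and 2 genes at an unadjusted p under 0.05 (Cd14 and C1qb). Of the 9, 8 had a higher mean in Old, with a median difference of 0.24 beside 0.06 for all genes. The arrays did not overlap for 2 genes, both higher in Old, where 12.9% of all genes were higher without overlap. Under median scaling 5 of the 9 were higher and the median was 0.02, beside −0.15 for all genes.

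Geriatric versus Young had no call, beside 4.19% of all genes, and 2 genes at an unadjusted p under 0.05 (Cd14 and Lyz2). In 4 of the 9 genes (Cd14, Lyz2, Csf1r and Cd68) both Geriatric arrays lay below all Young arrays, and 28.6% of all genes did so. Csf1r did so by A_55_P2025073 only, and by its other probes Geriatric and Young arrays overlapped. The median of the 9 was −0.46 beside −0.18 for all genes.

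Geriatric versus Old had 3 calls among the 9, all lower, where 20.0% of all genes passed, 14.4% of all genes as lower. Both Geriatric arrays lay below all Old arrays in 5 of the 9 markers (Cd14, Lyz2, Fcer1g, C1qb and Csf1r) and in 35.0% of all genes. By the Csf1r probe A_55_P2025078 Geriatric and Old arrays overlapped. The median was −0.90 beside −0.22 for all genes, and median scaling moved these values to −0.62 and 0.06. The share of lower genes among all calls moved with the scaling, from 72.4% to 57.2% in the authors' deposited values, 53.1% with quantile normalization and 51.6% with median scaling, and 78.1% with normexp. The calls among the markers were 1 (Cd14) in the authors' values and with quantile normalization, 2 with median scaling and 3 with normexp.

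SAMP8 versus SAMR1 had 1 call, Fcer1g, and no other gene at an unadjusted p under 0.05. Only Fcer1g separated the arrays without overlap, where 7.75% of all genes were higher and 5.37% lower without overlap. Of the 9, 7 had a higher mean in SAMP8 (median 0.14 beside 0.01 for all genes). The comparisons with Young and with Old share their arrays, so their values are given side by side and not as support for each other.

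Array by array, the median of the 9 markers' deviations from their means over the 14 arrays was 0.05, 0.32 and 0.38 in Young, 0.53, 0.71 and 0.46 in Old and 0.01 and −0.37 in Geriatric samples. It was −0.38, −0.51 and −0.39 in SAMR1 and −0.30, −0.11 and −0.40 in SAMP8 samples. All 9 markers lay above their 14-array median on Old 1 and 8 of the 9 on Old 2 and Old 3, whereas 1 or 2 of 9 did on Geriatric 3 and the SAMR1 arrays. Receptors for smell, taste and pheromones, a group taken from an earlier look at these data, varied in the same arrays. Of their 1535 probes, 48.5% to 60.7% were well above background on Young arrays, 60.7% to 78.9% on Old, 52.6% and 33.7% on Geriatric 1 and 3, 34.4% to 39.5% on SAMR1 and 33.7% to 35.8% on SAMP8 arrays. Among 1002 of these receptor genes that were tested, the median difference was 0.86 in Old versus Young, −1.99 in Geriatric versus Old, where 49.7% passed as lower, and 0.07 in SAMP8 versus SAMR1. The part of this variation in the marker results was not tested.

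**Figure D4:**
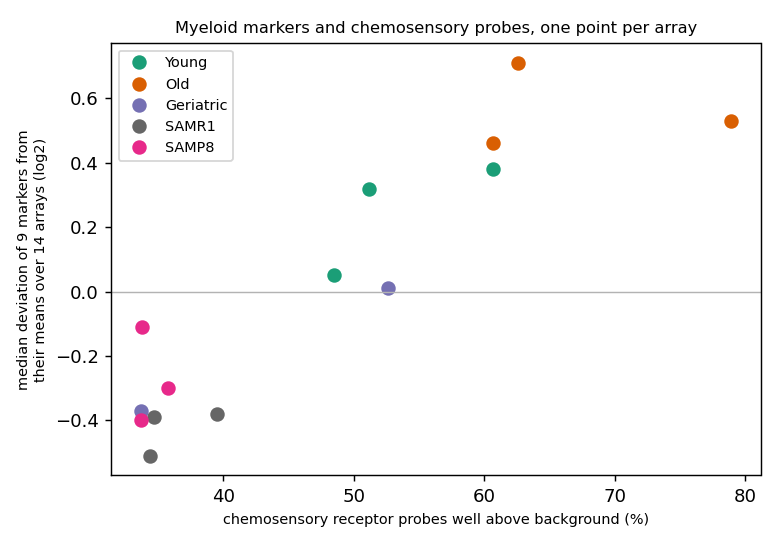
Median deviation of the 9 markers from their means over the 14 arrays (y axis, log2) against the share of chemosensory receptor probes well above background (x axis, %), 1 point per array, coloured by group. Old arrays lie at 60.7% to 78.9% and 0.46 to 0.71, and SAMR1 arrays at 34.4% to 39.5% and −0.51 to −0.38.

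Pairs of markers differed in how alike they varied. Over the 14 arrays Pearson's r between pairs of the 9 ranged from −0.342 (Csf1r and Cd68) to 0.862 (Cd14 and Lyz2), and it was 0.0414 for the adaptors Tyrobp and Fcer1g and 0.331 for C1qa and C1qb. These values are descriptions: the arrays share groups, slides and scaling. Tyrobp and C1qa were not well above background on every array, which limits the r of their pairs. The genes with a symbol most like a marker over the 14 arrays, of 18747 compared, were Rhox4e (r = 0.978) for Cd14, Mrgpra4 (0.951) for Lyz2, Gm9615 (0.908) for Fcer1g, Slc5a10 (0.910) for Tyrobp, Lcn5 (0.883) for C1qa and Sctr (0.977) for C1qb. For Csf1r it was Ccin (0.989), for Cd68 Dnajc17 (0.815) and for Ptprc Atp6ap1l (0.824). The 3 most alike of Cd14 included the olfactory receptor Olfr638 (0.975). None of the 9 markers was among the 3 genes most like another marker.

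Other genes of the myeloid lineage were read from a list of 30, of which 25 were measured. In Geriatric versus Old 1 rose and 5 fell, where 20.0% of all genes passed and 14.4% as lower, so the count lies near that background. The median was −1.05, and the lower calls numbered 3 with quantile normalization, 4 with the authors' values and with median scaling and 12 with normexp. Mpeg1, which encodes the pore-forming perforin-2 of macrophages, rose by 1.85 ± 0.27 (adjusted p = 0.00135, limma), with −1.0, −1.21 and −0.96 on Old against 0.39 and 1.2 on Geriatric arrays. Cd84, a self-binding receptor of the SLAM family, fell by 2.31 ± 0.36 (adjusted p = 0.00181, limma), Siglec1, a sialic acid receptor of macrophages, by 1.94 ± 0.47 (0.0158) and Irf8, a transcription factor of the monocyte lineage, by 1.18 ± 0.27 (0.0118). Spi1, which encodes PU.1 and stands on the array as Sfpi1, fell by 1.94 ± 0.58 (adjusted p = 0.0372, limma), a call lost with the authors' values, median scaling and quantile normalization (0.0787, 0.0756 and 0.148). Ly86 was not well above background on either Geriatric array and was at least 2.95-fold higher in Old (adjusted p = 0.0252, limma; 0.102 with the authors' values and 0.094 with quantile normalization). In the other 3 comparisons none of the 25 passed, and the medians were 0.50 (Old versus Young), −0.53 (Geriatric versus Young) and 0.10 (SAMP8 versus SAMR1). Under other scalings 1 rose in Old versus Young with the authors' values and 2 with normexp. Of the 25, 16 were well above background on all 14 arrays and 8 on 7 or fewer.

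Receptors and kinases that work with Tyrobp and Fcer1g were read from a list of 21, with 16 measured. In Geriatric versus Old 5 fell and none rose, beside 14.4% of all genes that passed as lower, with a median of −1.44. Lower calls numbered 4 with the authors' values and median scaling, 2 with quantile normalization, where 1 gene rose, and 8 with normexp. Vav1, an exchange factor downstream of these adaptors, was at −1.24, −1.51 and −2.07 on Old and −3.93 and −4.05 on Geriatric arrays, and fell by 2.38 ± 0.39 (adjusted p = 0.00237, limma). Hcst, which encodes the related adaptor DAP10, fell by 0.90 ± 0.27 (0.0390), a call lost with median scaling (0.120) and quantile normalization (0.0727). Plcg2, a phospholipase of the same pathway, was at least 5.29-fold higher in Old, Lcp2 at least 3.09-fold and Clec4d at least 2.67-fold, since none of the 3 was well above background on a Geriatric array (adjusted p 0.0197, 0.0150 and 0.0391, limma). The calls of Lcp2 and Clec4d were lost with the authors' values (0.305 and 0.179) and with quantile normalization (0.239 and 0.186). Log2 differences of Plcg2, Lcp2 and Clec4d were −0.81, −0.26 and −0.43 with the authors' values. They were −1.31, −0.82 and −1.0 with normexp, so both settings gave differences smaller than these bounds. Trem2, the best known partner of Tyrobp, was at −3.78, −2.90 and −3.79 on Old and −4.95 and −5.58 on Geriatric arrays and did not pass. None of the 16 passed in Old versus Young (median 0.70), Geriatric versus Young (−0.69) or SAMP8 versus SAMR1 (−0.16). Under other scalings 1 rose in Old versus Young with the authors' values and 1 with normexp.

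Complement genes other than C1q were read from a list of 20, all measured. In Geriatric versus Young 4 rose and none fell, where 4.19% of all genes passed, with a median of 0.45. C4b, which C1 cleaves, was at −4.52, −4.34 and −3.26 on Young, −3.27, −1.74 and −2.97 on Old and 0.72 and 0.78 on Geriatric arrays. C4b rose by 4.79 ± 0.49 against Young (adjusted p = 0.000412, limma) and by 3.41 ± 0.49 against Old (0.00107). The protease genes C1ra and C2 rose against Young by 1.24 ± 0.25 (0.0174) and 1.59 ± 0.29 (0.0123). In Geriatric versus Old 3 rose, where 20.0% of all genes passed, and the median was 0.40. Among the 3 was Cd55 (1.07 ± 0.34, adjusted p = 0.0481, limma; lost with normexp at 0.288). C4b lay between −0.56 and 0.75 on the SAMR1 and SAMP8 arrays, where none of the 20 passed, and none passed in Old versus Young. Under other scalings 3 rose in Old versus Young with the authors' values and 2 with normexp. With normexp 1 also rose in SAMP8 versus SAMR1.

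Genes around the CSF1 receptor were read from a list of 13, with 12 measured. Its ligand gene Csf1 was at −0.97, −1.06 and −1.21 on Young, −0.84, −1.03 and −0.14 on Old and 0.36 and 0.15 on Geriatric arrays. Csf1 rose by 1.33 ± 0.28 against Young (adjusted p = 0.0217, limma) and by 0.92 ± 0.28 against Old (0.0375), while the receptor gene did not pass. The transcription factor gene Maf rose against Young by 1.34 ± 0.33 (0.0454, lost with median scaling at 0.0516 and quantile normalization at 0.0549) and against Old by 1.51 ± 0.33 (0.0100). Pik3cg read −3.35 on Geriatric 3 against a mean of −1.31 on Old arrays, and the spot on Geriatric 1 was an outlier, so this difference (adjusted p = 0.00756, limma) rests on 1 Geriatric array and takes its spread from the other groups. None of the 12 passed in Old versus Young or SAMP8 versus SAMR1.

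Lipopolysaccharide recognition, in which Cd14 takes part, was read from 17 genes with 16 measured. Lbp, which carries lipopolysaccharide to Cd14, rose in Geriatric cells by 1.28 ± 0.32 against Young (adjusted p = 0.0484, limma; 0.050 with quantile normalization) and by 1.0 ± 0.32 against Old (0.0492). Ticam2, an adaptor of Toll-like receptor 4, was at least 3.31-fold higher in Old than in Geriatric cells (0.0206; 0.159 with the authors' values and 0.0665 with quantile normalization). The medians lay between −0.23 and 0.21 in the 4 comparisons. Among 17 genes of the phagocyte oxidase and the lysosome, Lgals3 (galectin-3) was well above background on both Geriatric arrays (−1.48 and −1.68) and on no Old array, with a level in Geriatric cells that was higher by at least 14.5-fold (adjusted p = 0.00373, limma). That bound holds for this scaling only. The call was kept with the authors' values and with normexp, but the log2 differences there were 2.23 and 1.9, against 4.63 here. No other gene of that list passed, and the median in Geriatric versus Old was 0.14.

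Of 19 further leukocyte genes and CD45 substrates, 18 were measured, and in Geriatric versus Old 1 rose and 3 fell (median −0.77), near the 20.0% of all genes that passed. The balance depended on the scaling, with 3 higher and 1 lower under median scaling, 2 of each with the authors' values and with quantile normalization, and 1 higher and 5 lower with normexp. Was, the cytoskeletal regulator of blood cells, was at −2.95, −2.75 and −2.98 on Old and −5.98 and −5.46 on Geriatric arrays and fell by 2.83 ± 0.55 (adjusted p = 0.0059, limma) and by 2.87 ± 0.55 against Young (0.0148). Ptprcap, which encodes the protein that binds CD45, fell by 0.73 ± 0.22 against Old (0.0371, lost with median scaling at 0.164), and Cd48 by 1.30 ± 0.41 (0.0457, lost with the authors' values at 0.138, median scaling at 0.0915 and quantile normalization at 0.0914). Plek, a substrate of protein kinase C in blood cells, was not well above background on any Young array and was at least 2.05-fold higher in Old and 3.86-fold higher in Geriatric cells (0.0434 and 0.00179). Plek rose by 0.91 ± 0.25 in Geriatric against Old (0.0285). Its Old versus Young call was lost under all 4 other scalings (0.687 with the authors' values, where the difference was 0.14, 0.0996 with median scaling, 0.184 with quantile normalization and 0.223 with normexp), and the Geriatric calls were lost with normexp (0.0678 and 0.335).

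Markers of other blood cells varied beside the myeloid markers. The 15 measured neutrophil and granulocyte markers of 19 had a median of −1.06 in Geriatric versus Old, with 4 lower calls (1 with the authors' values, 2 with quantile normalization, 3 with median scaling and 7 with normexp) where 14.4% of all genes passed as lower, and 4 of the 15 were well above background on all arrays. Their summed level was 0.31 to 0.94 in Young, 0.56 to 1.37 in Old, −0.58 to −0.04 in Geriatric, −0.35 to −0.21 in SAMR1 and −0.68 to −0.12 in SAMP8 samples. S100a8, a defining neutrophil marker, was well above background on 4 of 14 arrays (Young 3, Old 1, Old 3 and SAMP8 3). The 13 measured lymphocyte markers of 19 also had a median of −1.06, with 5 lower calls (2 with median scaling, 3 with the authors' values, 4 with quantile normalization and 7 with normexp), beside the same 14.4%. Their summed level was 2.91 to 3.1 in Young, 2.62 to 3.41 in Old, 2.36 to 2.40 in Geriatric, 2.48 to 2.81 in SAMR1 and 2.33 to 2.77 in SAMP8 samples. The summed level of the 25 other myeloid genes was 8.17 to 8.59 in Young, 8.06 to 8.68 in Old, 7.61 to 7.63 in Geriatric, 7.70 to 8.19 in SAMR1 and 7.89 to 8.78 in SAMP8 samples. Itgam leads this sum, which therefore mostly follows a single probe. The mean level of the 25 was −2.54 to −1.99 in Young, −2.03 to −1.38 in Old and −2.87 and −2.69 in Geriatric samples. It was −3.03 to −2.74 in SAMR1 and −2.84 to −2.63 in SAMP8 samples. The part of these cells in the marker results was not tested. In SAMP8 versus SAMR1, where Fcer1g rose, no gene of any of these lists passed. From the authors' deposited log2 values the Geriatric versus Old medians were smaller, −0.39 for the 9 markers, −0.21 for the other myeloid genes, −0.46 for the adaptor partners, −0.35 for the granulocyte and −0.43 for the lymphocyte markers.

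**Figure D5:**
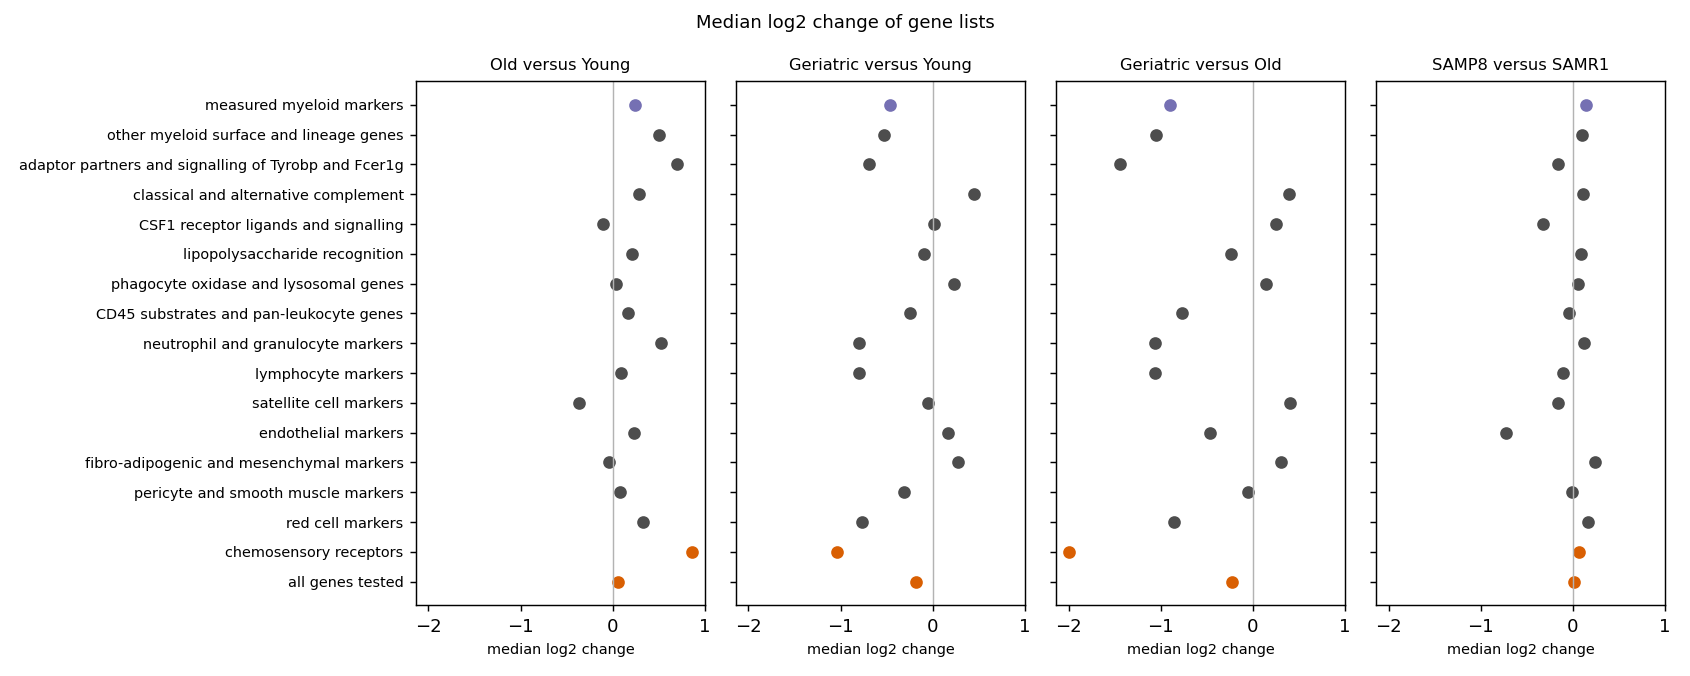
Median log2 difference (x axis) of the 9 measured markers, of the gene lists, of the chemosensory receptors and of all genes tested, in 4 comparisons. In Geriatric versus Old the markers (−0.90) lie beside the other myeloid genes (−1.05) and the lymphocyte and granulocyte lists (−1.06 each), and chemosensory receptors lie lowest (−1.99).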

How the data were processed

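RNA of sorted satellite cells was measured on 14 arrays in 5 groups. The deposited scanner files give linear intensity after background subtraction, and their headers name Agilent Feature Extraction 10.7.3.1 and probe positions in mm9. The authors also deposited a table of log2 values. The sources used here name no method for it, but normexp correction (offset 50) with quantile normalization matched it to within 0.000117, with a median of 7.80 on each array.

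Here the 75th percentile over 55681 probes of an array was subtracted from its log2 processed signals, without outlier spots (515 missing values). A probe counted as well above background where at least 0.5 of its spots did. Probes that did so on 2 or more arrays of any group were kept (49918), and the probe with the highest mean stood for a gene, giving 32863 genes. Names are those of the array design; 26300 probes matched RefSeq symbols by accession, 2044 were already current and 27337 matched neither. The fit used lmFit and eBayes of limma 3.58.1 under R 4.3.3 (1 coefficient per group over the 14 arrays, two-sided, Benjamini-Hochberg adjusted p under 0.05, 2.36 prior degrees of freedom). The procedure was checked on simulated data for Old versus Young only, so that check does not cover the comparisons with Geriatric cells or SAMP8 versus SAMR1. A fold written as "at least" compares the bright group's mean with a limit for each dim array, either its weakest detected signal or the probe's own, whichever was higher. It is a bound within this scaling only. For each gene written so, the difference was smaller with the authors' values and with normexp. The number of arrays limits the precision.

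The slide was read from array identifiers: Young 1, Young 3, Old 2, SAMR1 1, SAMR1 3 and SAMP8 2 shared slide 1, and the other 8 arrays slide 2, each slide with its own scan time. Sample 2 of the Geriatric group was not used here. The rule for names took all 10 markers, the genes of each list that passed or had the smallest p, the genes of the sort, and the 3 genes most like each marker; not all are printed, and 1 gene of the complement list is not reported here. Lyz1, S100a8 and Trem2 fall outside it and were chosen after their values were seen. The markers and lists were chosen with earlier results of these data known. Alternatives were other scalings and background correction, filters, probe rules, slide and replicate blocks, single slides, the compared groups alone, a trended prior and leaving out each array.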

Additional observations from a re-analysis of the deposited data

How the results depend on the processing

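Cd14 in Geriatric versus Old passed in 13 of 13 alternative settings and in all 14 fits that left out 1 array (adjusted p 0.00155 to 0.0485, limma). Lyz2 passed in 10 of 13 and 10 of 14 (adjusted p 0.0109 to 0.143), C1qb in 6 of 13 and 7 of 14 (0.0203 to 0.210), and Fcer1g in SAMP8 versus SAMR1 in 10 of 14 and 8 of 14 (0.00908 to 0.384). On slide 2 alone, the only slide with Geriatric arrays, Cd14 passed (−1.53, 0.0485) and Lyz2 and C1qb did not (0.0869 and 0.210). Calls that appeared elsewhere were C1qb in Old versus Young with normexp (0.0455) and slide as a block (0.0211), C1qa in Geriatric versus Old without Geriatric 1 (0.0198, from 1 array not well above background), Lyz2 in Geriatric versus Young without Young 1 (0.0493), and for Fcer1g the Geriatric versus Young minus SAMP8 versus SAMR1 contrast with normexp (0.0296) and without SAMP8 2 (0.0391).

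Of the differences that did not pass, these changed sign. With the authors' values: Old versus Young Lyz2 (−0.13), C1qa (−0.09) and Ptprc (−0.03), Geriatric versus Young C1qa (0.05), Geriatric versus Old C1qa (0.14) and Ptprc (0.11). With median scaling: Old versus Young Lyz2 (−0.10), Csf1r (−0.11) and Ptprc (−0.08), and Geriatric versus Old Ptprc (0.25). With quantile normalization: Old versus Young Lyz2 (−0.26), C1qa (−0.27) and Ptprc (−0.06), and Geriatric versus Old C1qa (0.08) and Ptprc (0.20). With normexp: Geriatric versus Old Cd68 (−0.16) and SAMP8 versus SAMR1 Lyz2 (0.01). With slide as a block: Geriatric versus Old Cd68 (−0.17). On slide 1 alone: Old versus Young Fcer1g (−0.04), Csf1r (−0.01) and Ptprc (−0.12), and SAMP8 versus SAMR1 Cd68 (−0.59). On slide 2 alone: Old versus Young C1qa (−1.17) and SAMP8 versus SAMR1 Lyz2 (0.36). Leaving out 1 array turned the sign in 21 fits, some of them of differences already named, none a call with all arrays, over these ranges; a lone remaining Geriatric array is assumed to vary like the other groups. In Old versus Young they were −0.23 (without Young 1) to 0.44 for Lyz2, −0.28 (without Young 3) to 0.78 for C1qa and −0.07 (without Young 2) to 0.21 for Csf1r. In Geriatric versus Young they were −0.21 to 0.03 (without Young 3) for Fcer1g, −0.13 (without Geriatric 1) to 0.33 for Ptprc, and, highest without Geriatric 3, −2.89 to 1.05 for Tyrobp and −2.65 to 1.27 for C1qa. In Geriatric versus Old they were −0.45 (without Old 3) to 0.44 for Cd68 and, highest without Geriatric 3, −3.84 to 0.10 for Tyrobp, −2.89 to 1.04 for C1qa and −0.27 to 0.20 for Ptprc. In SAMP8 versus SAMR1 they were −0.03 (without SAMP8 2) to 0.25 for Cd14, −0.47 to 0.20 (without SAMR1 3) for Lyz2, −0.16 (without SAMP8 2) to 0.11 for Csf1r and −0.03 (without SAMP8 3) to 0.99 for Cd68. The causes were not tested.

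Of all genes, 472 passed in Old versus Young, 1377 in Geriatric versus Young, 6561 in Geriatric versus Old, 149 in SAMP8 versus SAMR1, 122 in the contrast of Old versus Young with SAMP8 versus SAMR1 and 568 in that of Geriatric versus Young. Old versus Young gave 777 with the authors' values, 1040 with normexp, 729 with slide as a block, 0 on either slide alone and 43 with the groups fitted alone. Geriatric versus Young gave 864 with slide as a block, 2 on slide 2 and 422 alone, Geriatric versus Old 1553 on slide 2 and 3001 alone, and SAMP8 versus SAMR1 229 with the authors' values, 264 with normexp, 0 on either slide and 47 alone. The second contrast gave 892 with normexp, the first 0 on either slide and the second 0 on slide 2. Among the markers, the count in Geriatric versus Old was 1 with the authors' values, with quantile normalization and on slide 2; in Old versus Young it was 1 with normexp and with slide as a block; in SAMP8 versus SAMR1 it was 0 with slide as a block, on either slide and with the groups alone; and in the second contrast it was 1 with normexp. Leaving out 1 array gave 85 (without Old 1) to 793 (without Old 3) genes in Old versus Young, 414 (without Geriatric 3) to 1537 (without SAMP8 3) in Geriatric versus Young, 1989 (without Geriatric 3) to 7309 (without Old 3) in Geriatric versus Old, 56 (without SAMR1 2) to 250 (without SAMP8 3) in SAMP8 versus SAMR1, and 59 (without SAMR1 2) to 176 (without Old 3) and 268 (without Geriatric 3) to 774 (without SAMP8 3) in the contrasts; the marker counts were 0, 0 to 1, 1 to 3, 0 to 1, 0 and 0 to 1. The share of lower calls ranged from 16.7% to 33.0% in Old versus Young, from 50.3% to 66.0% in Geriatric versus Young and from 40.2% to 50.3% in SAMP8 versus SAMR1 over the scalings.

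No pairing of arrays by replicate number was seen. Deviations from group means correlated at −0.255 to 0.192 over 26 pairs of the same number, 5 of them over 0.1, and at −0.192 to 0.196 over 52 other pairs. Those 5 pairs each shared a slide, and the pair at −0.255 (Young 3 and Old 3) did not. Among the other pairs the highest, 0.196 (Young 3 and Old 1), came from different slides. The check therefore does not separate replicate number from slide. With the replicate block 237 genes passed in Old versus Young, 869 in Geriatric versus Young and 76 and 349 in the contrasts, C1qb in Geriatric versus Old was lost (adjusted p = 0.0649, limma) and Fcer1g passed the second contrast (0.0298), giving a marker count of 1; no other marker call changed. With 2 or 3 arrays per group the precision is limited by their number, and C1qc, not kept by the filter, has no value to compare.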

Other observations

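Among 10 markers of pericytes and smooth muscle, all measured, the 2 that passed in Old versus Young went opposite ways, where 1.44% of all genes passed. Of the 10, 5 were higher and 5 lower in Old, with a median of 0.08. Abcc9, which encodes a potassium channel subunit used to mark pericytes, fell by 2.70 ± 0.41 (SE) log2 in Old against Young cells (adjusted p = 0.0123, limma). Pdgfrb, the receptor gene of the same list, lay at −5.01, −4.15 and −3.9 on Young and −2.03, −1.78 and −1.91 on Old arrays, and rose by 2.45 ± 0.32 (adjusted p = 0.00609, limma). Against Young, Geriatric cells gave −2.94 ± 0.45 for Abcc9 and 2.66 ± 0.35 for Pdgfrb. Both passed there as well (adjusted p = 0.00496 and 0.00224, limma), beside 4.19% of all genes, in a comparison that uses the same Young arrays.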
